A study of Homo sapiens with 12 samples.

Results

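The genes described here are APOE and CLU, which encode the secreted apolipoproteins E and J, the cholesterol exporter ABCA1, and the lipoprotein receptors LRP1, LRP8, VLDLR and SORL1. They were chosen by name from a list of 8 genes, and a gene was taken when the deposited table of footprint to RNA ratios gave its symbol for a transcript of the count table. This found 7 of the 8 genes, 1 transcript each, among the 10932 transcripts with a symbol and the 19972 transcripts counted. LRP4 was not analysed here. The list of 8 was chosen with earlier results of these data known, so counts of called genes below are descriptive. The transcripts were ENST00000252486 of APOE (ENSG00000130203), ENST00000316403 of CLU (ENSG00000120885), ENST00000374736 of ABCA1 (ENSG00000165029), ENST00000243077 of LRP1 (ENSG00000123384), ENST00000306052 of LRP8 (ENSG00000157193), ENST00000382100 of VLDLR (ENSG00000147852) and ENST00000260197 of SORL1 (ENSG00000137642).

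The cells were induced neurons, obtained by driving Ngn2, a neurogenic transcription factor, in the H1 line of human embryonic stem cells, and were taken at day in vitro 14. One group was LLPH wt/wt and the other LLPH Nterm/Nterm, and each gave 3 RNA-seq libraries of polyA RNA and 3 Ribo-seq libraries of ribosome footprints, the pieces of mRNA that ribosomes shield from nuclease. The sources used here do not describe the Nterm allele further. Both genotypes grew without added glia, in medium with 2 µg/mL doxycycline and 4 µM cytosine arabinoside (AraC, which acts on dividing cells), changed in full on day 5 and in part on day 10, and both were lifted with Accutase in 100 µg/mL cycloheximide. The labels do not say whether replicates were separate cultures or clones, so a p-value below reflects the spread among these libraries alone, which may be technical.

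In brain, APOE and CLU are best known as products of astrocytes, which secrete them as particles that carry cholesterol and phospholipid. ABCA1 loads lipid onto APOE at the cell surface, and LRP1, LRP8 and VLDLR, members of the LDL receptor family, bind and take up such particles in neurons. LRP8 and VLDLR are also the receptors of reelin, and SORL1, a VPS10-domain sorting receptor, returns APP and other cargo from endosomes to the Golgi.

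Promoter sequence was looked up because several of these genes moved together in RNA. RefSeq entries for GRCh38.p14 were matched by symbol for 6 of the 7 genes, with 3 windows for APOE. The 250 bases before the annotated start are shown for ABCA1 and APOE, whose RNA was lower in Nterm/Nterm, and for LRP8, whose RNA was higher. Capitals mark matches, on either strand, to 3 motifs. These were a direct repeat of NGGTNA with 4 bases between both copies, the form bound by the sterol-sensing receptor LXR with its partner RXR, the GC box GGGCGG, and TATAA. The windows are chr9:104928156-104928405 on the minus strand for ABCA1, chr19:44905546-44905795 on the plus strand for APOE (the first of its windows) and chr1:53328071-53328320 on the minus strand for LRP8, all printed 5′ to 3′ towards the start.
ABCA1: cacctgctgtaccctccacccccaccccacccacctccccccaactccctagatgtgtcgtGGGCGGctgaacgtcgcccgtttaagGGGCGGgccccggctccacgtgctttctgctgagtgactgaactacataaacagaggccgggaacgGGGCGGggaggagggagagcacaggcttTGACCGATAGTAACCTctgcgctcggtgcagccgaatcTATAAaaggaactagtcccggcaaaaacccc
APOE: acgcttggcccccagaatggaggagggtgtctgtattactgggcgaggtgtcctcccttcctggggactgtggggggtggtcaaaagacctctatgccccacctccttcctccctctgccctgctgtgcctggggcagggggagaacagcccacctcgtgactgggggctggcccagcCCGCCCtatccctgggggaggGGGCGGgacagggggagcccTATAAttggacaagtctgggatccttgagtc
LRP8: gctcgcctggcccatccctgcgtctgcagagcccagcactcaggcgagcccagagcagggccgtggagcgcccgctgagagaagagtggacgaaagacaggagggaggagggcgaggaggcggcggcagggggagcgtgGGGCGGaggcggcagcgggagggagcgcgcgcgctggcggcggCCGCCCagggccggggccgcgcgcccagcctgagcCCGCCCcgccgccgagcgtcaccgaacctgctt
The ABCA1 window held the direct repeat from 69 to 54 bases before the start, and 0.530% of the 35116 windows in the table held a match. The pattern takes any base where N stands, so this share describes the pattern and is no test of the ABCA1 site. GGGCGG was matched 3 times in ABCA1, 2 times in this APOE window and 3 times in LRP8, with no overlap between these matches and those of the other motifs, and 42.6% of all windows held it. TATAA stood from 31 to 27 bases before the start in both ABCA1 and this APOE window, and in 18.9% of all windows. Among genes not called in RNA, the LRP1 window held 1 match to GGGCGG, and those of VLDLR and SORL1 held 2 each. The other APOE windows held none of the 3 motifs. These are letter matches only, and binding was not measured.

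RNA libraries held 18944427 to 25089790 counts and footprint libraries 12652833 to 16356419. The 7 genes had 322 to 19511 counts per library, for which counting error alone is 5.57% and 0.716%. Levels below are CPM, each count scaled to the summed counts of the tested transcripts with TMM factors, and because they are not divided by transcript length they are compared between libraries and not between genes. Genotypes are those of the titles. The genotype tag of the 6 Ribo-seq samples names the opposite genotype, so each direction given for footprints rests on the titles. LLPH itself had RNA counts, not adjusted for depth, of 676, 627 and 687 for wt/wt against 611, 603 and 630 for Nterm/Nterm, and the fitted log2 change was 0.14 (edgeR adjusted p = 0.135). Its footprint counts were 88, 135 and 98 against 39, 22 and 36, with a fitted log2 change of -1.6 (edgeR adjusted p = 1.77e-05). All 12 neuronal markers looked for were detected, and GFAP and AQP4, defining markers of astrocytes, were not analysed here.

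In RNA, APOE, CLU and ABCA1 were lower and LRP8 was higher in Nterm/Nterm, while LRP1, VLDLR and SORL1 did not pass the test. Thus 3 of 7 genes fell and 1 rose at an adjusted p under 0.05 (edgeR quasi-likelihood F test, Benjamini-Hochberg over all transcripts). Over all 14659 transcripts tested, 17.9% were called, 10.6% lower and 7.25% higher. These were 2624 transcripts, and there were 841 without wt/wt library 1, 964 without wt/wt library 2, 1729 without Nterm/Nterm library 3 and 4504 with the replicate number as a block. The median log2 change was -0.21 for the 7 genes and -0.00039 for all transcripts. For 5 of the 7 genes every library of one genotype lay above every library of the other, and this held for 36.2% of all transcripts.

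In footprints, CLU, ABCA1 and SORL1 were lower and LRP8 was higher, again 3 of 7 down and 1 up. Of the 13566 transcripts tested, 13.3% were called, 8.91% lower and 4.36% higher, with 954, 978 and 965 transcripts called without wt/wt library 1, wt/wt library 2 and Nterm/Nterm library 3. The median log2 change was -0.14 for the 7 genes and 0.0083 for all transcripts. Of the 7 genes, 5 had genotypes that did not overlap, as had 30.7% of all transcripts. The count of 4 genes fell to 2 without wt/wt library 2 or without Nterm/Nterm library 3, through CLU and LRP8.

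**Figure D1:**
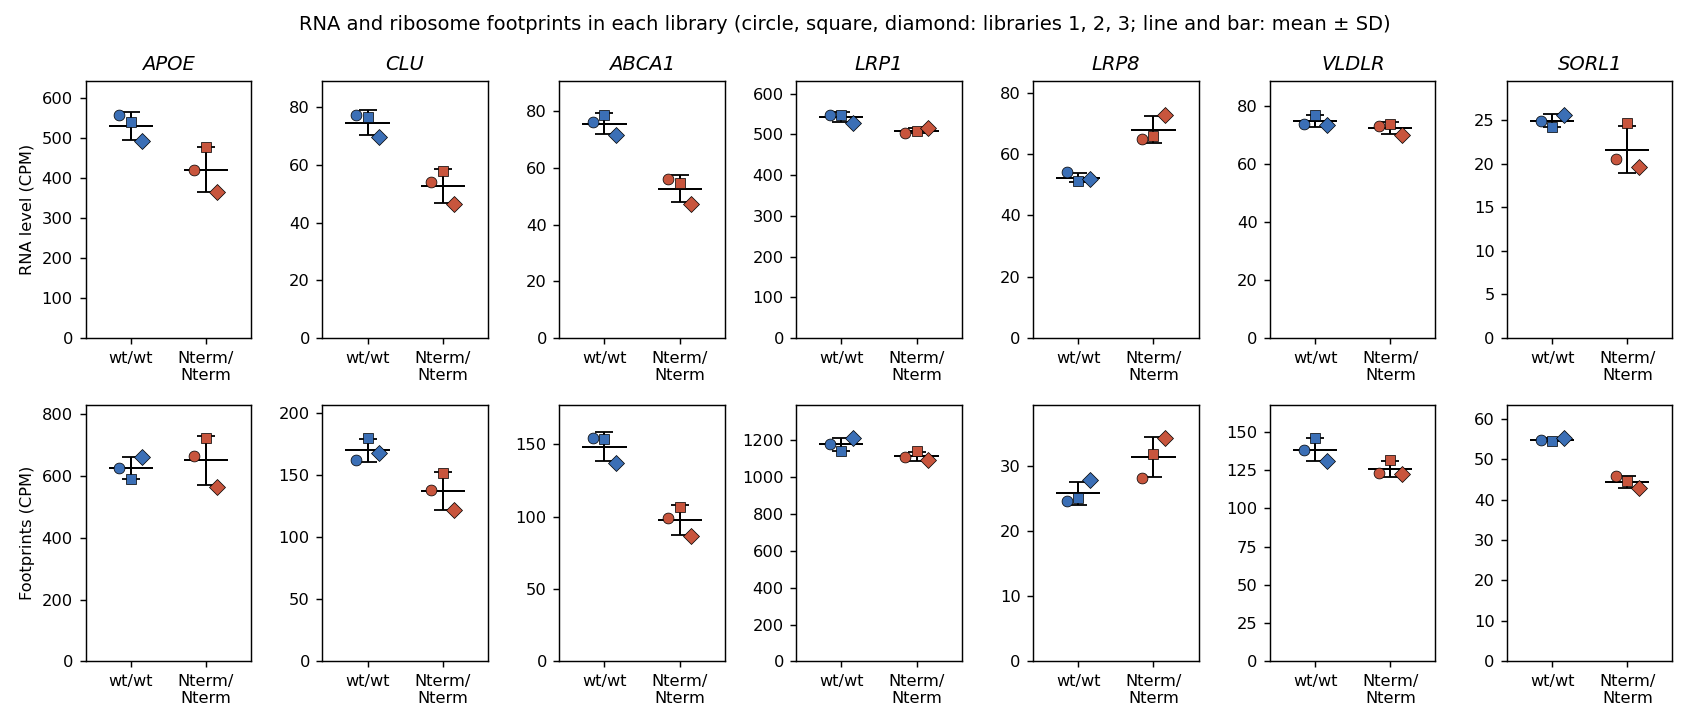
RNA (top row) and footprint (bottom row) level of each gene in CPM, with 1 symbol per library (circle, square and diamond for libraries 1, 2 and 3) and the mean ± SD of the 3 libraries of each genotype; axes start at 0. APOE, CLU and ABCA1 sit lower in Nterm/Nterm in RNA, and the APOE footprints of the genotypes overlap.

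APOE RNA was lower in every Nterm/Nterm library, while its footprints were not. The RNA level was 559, 542 and 493 CPM in the wt/wt libraries and 421, 479 and 365 CPM in Nterm/Nterm. The lowest wt/wt library lay above the highest Nterm/Nterm library, although by little. The means were 531 ± 34.7 and 422 ± 57.0 CPM (SD, n = 3), a fitted log2 change of -0.33 ± 0.0798 (SE) with an edgeR adjusted p of 0.0144. This call was lost without wt/wt library 1 (adjusted p = 0.0818) or wt/wt library 2 (0.0674), and the change was -0.24 without Nterm/Nterm library 3, the lowest. APOE footprints were at 627, 589 and 662 CPM in wt/wt and 665, 723 and 566 CPM in Nterm/Nterm. The genotypes overlapped fully, with the highest and the lowest value both in Nterm/Nterm. The footprint change was 0.06 ± 0.0877 (edgeR adjusted p = 0.717), and it ran from -0.02 to 0.15 when single libraries were left out.

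CLU, also called clusterin, a secreted chaperone that travels on lipoproteins, was lower in Nterm/Nterm in both assays. Its RNA level was 77.4, 76.6 and 69.5 CPM in wt/wt and 54.0, 57.8 and 46.4 CPM in Nterm/Nterm. The genotypes were clearly apart, by more than either group's own range. The log2 change was -0.50 ± 0.0743 (edgeR adjusted p = 0.00142), and it stayed between -0.57 and -0.42 and past the threshold when any library was left out. CLU footprints were at 162, 180 and 167 CPM in wt/wt and 138, 152 and 121 CPM in Nterm/Nterm. Every wt/wt library again lay above every Nterm/Nterm library. The change, -0.31 ± 0.0767 (edgeR adjusted p = 0.0103), no longer passed without wt/wt library 2 (0.0502) or Nterm/Nterm library 3 (0.0670).

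ABCA1, which exports cholesterol and phospholipid to apolipoproteins, had the largest RNA and footprint decreases of the 7 genes. In RNA it stood at 76.2, 78.8 and 71.5 CPM in wt/wt and at 56.1, 54.5 and 47.3 CPM in Nterm/Nterm. In footprints it stood at 154, 154 and 137 CPM in wt/wt and at 98.7, 107 and 86.4 CPM in Nterm/Nterm. In both assays the genotypes were apart by more than the spread within either. RNA changed by -0.52 ± 0.0657 (edgeR adjusted p = 0.000563) and footprints by -0.61 ± 0.0779 (3.64e-05). On the linear scale RNA fell by 30.3% and footprints fell by 34.4%. Both calls held when each library was left out in turn, with changes of -0.57 to -0.45 in RNA and -0.68 to -0.53 in footprints. The ABCA1 window shown above is the one with the direct repeat, and a link between this repeat and the changes was not tested.

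LRP1, a large endocytic receptor for APOE and many other ligands, did not pass the test in either assay. Its RNA was at 549, 549 and 528 CPM in wt/wt and 503, 509 and 516 CPM in Nterm/Nterm. Its footprints were at 1179, 1145 and 1213 CPM in wt/wt and 1108, 1141 and 1093 CPM in Nterm/Nterm. The genotypes did not overlap in either assay, but in footprints the gap was narrow. The RNA change of -0.09 ± 0.0374 (edgeR adjusted p = 0.120) was called when the replicate number was a block in the fit (0.0127, at the same -0.09). The labels do not say that this number pairs libraries. The footprint change was -0.08 ± 0.0795 (edgeR adjusted p = 0.546).

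LRP8 and VLDLR share reelin as a ligand, and of the pair only LRP8 passed the test. LRP8 RNA was at 54.0, 51.1 and 51.8 CPM in wt/wt and at 64.7, 65.9 and 72.8 CPM in Nterm/Nterm. All Nterm/Nterm libraries were above all wt/wt libraries, and the change of 0.38 ± 0.0565 (edgeR adjusted p = 0.00151) passed without any single library. LRP8 footprints were at 24.6, 24.9 and 27.8 CPM in wt/wt and at 28.0, 31.7 and 34.2 CPM in Nterm/Nterm. Here the highest wt/wt library almost met the lowest Nterm/Nterm library. The footprint change of 0.28 ± 0.0928 (edgeR adjusted p = 0.0468) was lost when wt/wt library 1 (0.175) or 2 (0.174) or Nterm/Nterm library 2 (0.0890) or 3 (0.227) was left out, and with DESeq2 (0.0791) or limma-voom (0.0501). LRP8 had the fewest footprint counts of the 7 genes, 322 to 520 per library.

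VLDLR RNA was at 73.6, 77.0 and 73.5 CPM in wt/wt and 73.1, 73.8 and 70.1 CPM in Nterm/Nterm. VLDLR footprints were at 138, 146 and 131 CPM in wt/wt and 123, 132 and 122 CPM in Nterm/Nterm. The genotypes overlapped in both assays. The changes were -0.05 ± 0.0465 in RNA (edgeR adjusted p = 0.522) and -0.14 ± 0.0665 in footprints (0.185). The difference between the changes of LRP8 and VLDLR was not tested.

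SORL1 was lower in Nterm/Nterm footprints, and its RNA values overlapped. Its footprints were at 54.8, 54.5 and 55.2 CPM in wt/wt and 45.7, 44.5 and 42.9 CPM in Nterm/Nterm, so each genotype was tight and the 2 were well apart. This change was -0.31 ± 0.0704 (edgeR adjusted p = 0.00663), and the highest adjusted p without a single library was 0.0363. SORL1 RNA was at 24.9, 24.2 and 25.6 CPM in wt/wt and 20.5, 24.7 and 19.6 CPM in Nterm/Nterm. One Nterm/Nterm library, the second, lay among the wt/wt libraries. The RNA change was -0.21 ± 0.0865 (edgeR adjusted p = 0.116), it was -0.31 (0.0153) without that library, and with the replicate block it was -0.21 (0.0400).

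**Figure D2:**
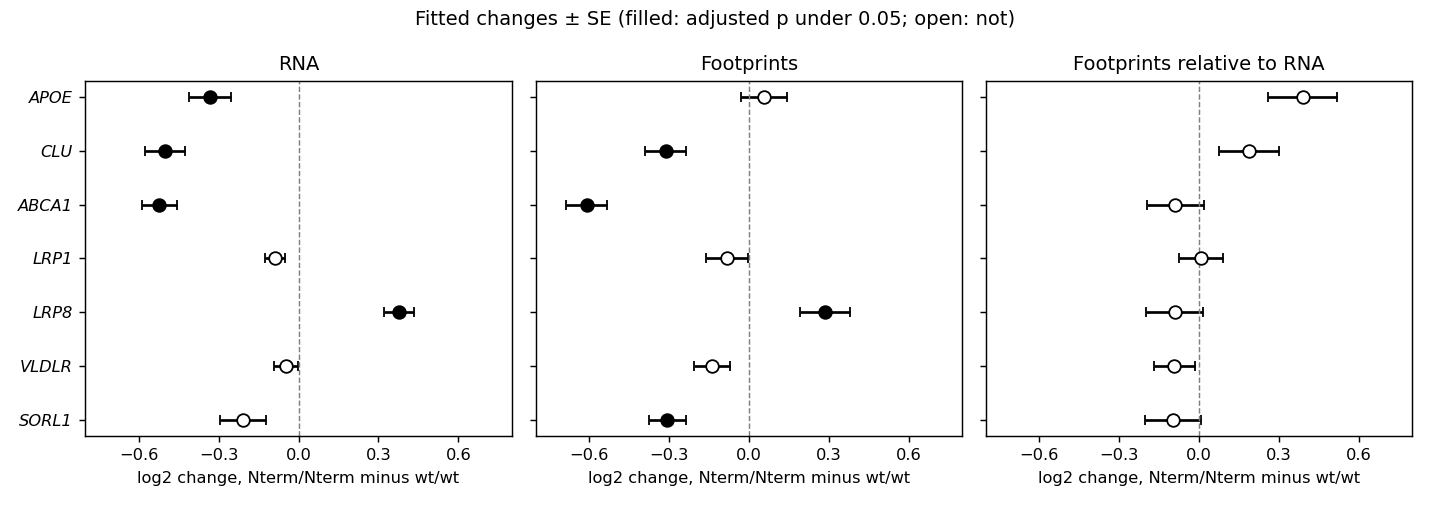
Fitted log2 change, Nterm/Nterm minus wt/wt, ± SE for RNA, footprints and footprints relative to RNA (x axes), by gene (rows); filled points had an adjusted p under 0.05. ABCA1 is at -0.52 and -0.61 in the first panels, APOE is at -0.33 in RNA and 0.06 in footprints, and no point is filled in the third panel.

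Translational efficiency compares the footprint change of a gene with its RNA change, here through an interaction term fitted on the 12 libraries. None of the 7 genes passed with edgeR without a block or with limma-voom, and 1, APOE, had an unadjusted p under 0.05 in that edgeR fit. A block of 6 same-numbered pairs of RNA and footprint libraries, added after seeing the data, gave APOE an edgeR adjusted p of 0.0469. DESeq2 gave an adjusted p for 672 transcripts, of which 37 were called, and for 2 of the 7 genes, APOE (0.0556) and LRP1 (0.996). Over all 13422 transcripts, edgeR called 0.0224%. APOE had a change of 0.39 ± 0.128 (edgeR adjusted p = 0.820). Its unadjusted p was 0.00642 with edgeR, adjusted over 13422 transcripts, and 0.00339 with DESeq2, adjusted over 672. CLU had the next highest value, 0.19 ± 0.112 (edgeR adjusted p = 0.992), and the other 5 genes lay between -0.10 and 0.01. In the authors' deposited table, the Nterm/Nterm ratio of APOE is 1.29 times that of wt/wt with an unadjusted p of 0.0388, and that of CLU is 1.13 times with an unadjusted p of 0.0932. For the other 5 genes the authors' deposited table gives 0.926 to 0.996 times, with unadjusted p of 0.0656 to 0.892. Of all 10932 transcripts in the authors' deposited table, 4.67% have an unadjusted p under 0.05.

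The ratio of mean footprint CPM to mean RNA CPM placed the genes at different ranks among the 13422 transcripts. These ratios are descriptive, since they depend on how each assay was counted, and the median over all transcripts was 1.16 in each genotype. In wt/wt, CLU (ratio 2.28, percentile 91.2), SORL1 (2.20, 90.0), LRP1 (2.18, 89.6), ABCA1 (1.97, 84.7) and VLDLR (1.85, 81.7) ranked high. APOE was mid-range, at 1.18 and percentile 51.2. LRP8 was low, at 0.493 and percentile 11.6. In Nterm/Nterm, APOE stood at 1.54 (percentile 69.7), CLU at 2.60 (95.3), LRP1 at 2.19 (89.7) and LRP8 at 0.462 (10.0). Taking libraries of the same number together, the APOE ratio was 1.09 to 1.34 in wt/wt and 1.51 to 1.58 in Nterm/Nterm. These ranges depend on matching by number. In Nterm/Nterm, same-numbered RNA and footprint libraries correlated by 0.218, 0.422 and 0.502, against -0.402 to 0.0587 for libraries of different number. In wt/wt the same-numbered values were 0.0348, 0.0842 and 0.288, against -0.226 to 0.13, so the match by number is unclear there. The labels do not say that the numbers pair these libraries, and other matchings were not tested.

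**Figure D3:**
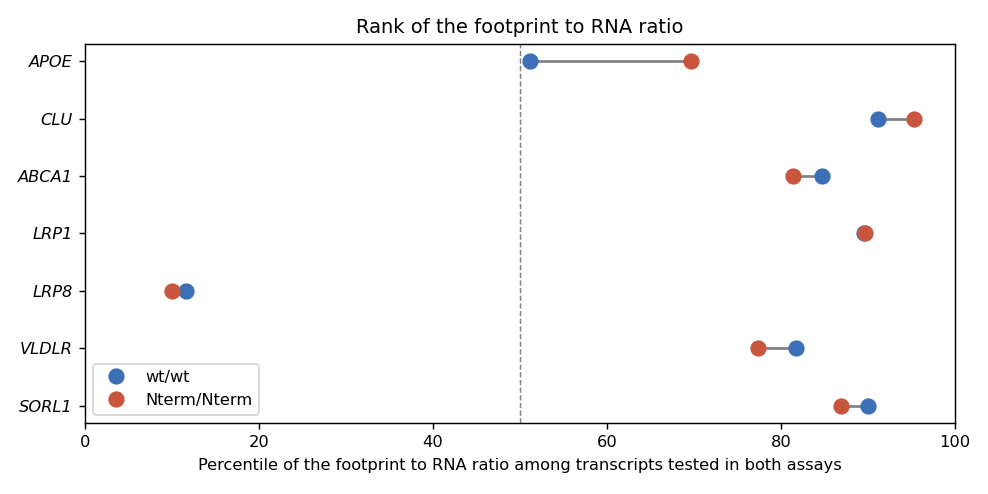
Percentile of each gene's footprint to RNA ratio among the 13422 transcripts tested in both assays (x axis), for wt/wt and Nterm/Nterm (colours), by gene (rows); the dashed line is the middle of the ranking. APOE goes from 51.2 to 69.7, LRP8 is at 11.6 and 10.0, and the other genes lie above 77.

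Other genes of the same pathways were taken from 8 lists with 114 entries, of which 84 had a symbol in the deposited table. The lists do not include the 7 genes above. In translational efficiency, edgeR without a block and limma-voom called 0 of the 83 genes tested in these lists. In that edgeR fit 2 had an unadjusted p under 0.05. With the block of 6 pairs, edgeR called 1 of the secreted ligands of LRP1. DESeq2 called 1, MDK, a secreted ligand of LRP1 (0.38, adjusted p = 0.0447, against 0.723 with edgeR). The unadjusted p of MDK was 0.0024 with DESeq2 and 0.00393 with edgeR, which adjusted over 672 and 13422 transcripts. Most genes of these lists had no adjusted p in DESeq2. Counts below are of genes past the adjusted threshold, beside the shares of all transcripts given above. The lists were chosen with earlier results of these data known, so these counts are descriptive and are no test of a list.

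Among the other apolipoproteins and lipoprotein enzymes, 2 of 4 fell in RNA and 2 of 4 in footprints, and none rose. LIPG, endothelial lipase, fell in both (-0.46 ± 0.0792 and -0.51 ± 0.0857, edgeR adjusted p = 0.00287 and 0.000572). PLTP, the phospholipid transfer protein, fell in RNA (-0.44), and APOL2 in footprints (-0.54). The list's median was -0.42 in RNA and -0.38 in footprints. With the replicate block all 4 fell in RNA, and the PLTP call was lost without wt/wt library 1 (adjusted p = 0.0900) and with DESeq2 (0.0555).

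In the LDL receptor family with its chaperones and regulators, 2 of 14 genes rose and 6 fell in RNA, and 1 rose and 2 fell in footprints. LRP2, megalin, fell most, from 13.2 ± 1.01 to 6.58 ± 0.325 CPM in RNA (SD, n = 3), a log2 change of -1.01 (edgeR adjusted p = 0.000226), and -1.16 in footprints (3.93e-06). MYLIP, a ubiquitin ligase that targets VLDLR and LRP8 for degradation, changed by -0.53 in RNA and -0.46 in footprints. LDLRAD3 rose in both (0.34 and 0.31), LDLRAD4 in RNA (0.38), and SCARB1, a receptor for high-density lipoprotein, fell in RNA (-0.31). The LDLRAD3 footprint call was lost without wt/wt library 1 (edgeR adjusted p = 0.0580) or Nterm/Nterm library 3 (0.0685). The LDLRAD4 RNA call was lost without wt/wt library 1 (0.0737) or 2 (0.0956) or Nterm/Nterm library 3 (0.0629). The SCARB1 RNA call was lost without wt/wt library 1 (0.0758) or 2 (0.115) or Nterm/Nterm library 1 (0.077), and with DESeq2 (0.0535). The list's median was -0.11 in RNA and -0.10 in footprints. In place of 8 RNA calls there were 3 without wt/wt library 1, 4 without wt/wt library 2, and 5 without either library 1 or library 3 of Nterm/Nterm.

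Of the VPS10 receptors and the retromer, which sort cargo with SORL1, 2 of 12 rose and 2 fell in RNA, and 2 rose and none fell in footprints. SORCS3 (0.39 and 0.35) and SORCS2 (0.21 and 0.22) rose in both assays, and SORCS1 (-0.42) and SORT1 (-0.16) fell in RNA. For all 4 the RNA values of the genotypes overlapped, and none of these calls was left without wt/wt library 1, wt/wt library 2 or Nterm/Nterm library 3. Without Nterm/Nterm library 1, 2 rose and none fell, and without Nterm/Nterm library 2 none rose and 2 fell. The SORCS1 call was also lost with limma-voom (adjusted p = 0.0575). In footprints neither call was left without wt/wt library 1 or Nterm/Nterm library 3, and 1 without wt/wt library 2 or Nterm/Nterm library 2, while 2 rose and 2 fell without wt/wt library 3 and with the replicate block. The retromer core genes VPS35, VPS26A, VPS26B and VPS29 had RNA values of 0.04, 0.03, 0.11 and 0.14, none past the threshold.

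The reelin pathway, which runs through LRP8 and VLDLR, had 3 of 11 genes higher and none lower in RNA, and 2 higher and none lower in footprints. RELN, the secreted ligand, rose from a mean of 14.2 to 21.4 CPM in RNA, a log2 change of 0.59 ± 0.102 (edgeR adjusted p = 0.00309), and by 0.58 in footprints (0.00116). DAB1, the adaptor that binds the tails of both receptors, rose by 0.41 in RNA and 0.32 in footprints, and PAFAH1B1 by 0.14 in RNA. The list's median was 0.05 in RNA and 0.10 in footprints. The footprint count was 1 when library 1 of either genotype or library 3 of Nterm/Nterm was left out, and the RNA count was 2 when library 1 of either genotype, library 2 of wt/wt or library 3 of Nterm/Nterm was left out.

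Among agrin, sclerostin and DKK partners of LRPs, 1 of 5 genes, AGRN, fell in both assays, and 1, DKK3, rose in RNA. AGRN, a heparan sulphate proteoglycan of synaptic basal lamina, went from 468 ± 20.1 to 362 ± 13.8 CPM in RNA (SD, n = 3) and changed by -0.37 in both assays (edgeR adjusted p = 0.000468 and 0.00373). The RNA change of DKK3 was 0.13 (adjusted p = 0.0472), a call lost when any library was left out, with DESeq2 and with no filter.

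In cholesterol efflux and its regulators, 1 of 14 genes rose and 2 fell in RNA, and 1 fell in footprints. NPC2 and NPC1, which move cholesterol out of lysosomes, fell in RNA (-0.37 and -0.25), and NPC2 in footprints (-0.21). INSIG1, a sterol-regulated brake on cholesterol synthesis, rose in RNA (0.28). The other exporters and the LXR partners did not pass: ABCG1 had 0.08 in RNA, NR1H2 (LXR beta) -0.17 and RXRA -0.17. The median of -0.04 in both assays was near that of all transcripts. With the replicate block 4 rose and 2 fell in RNA. The RNA calls were 1 when library 1 or 2 of wt/wt was left out, 2 without library 3 of Nterm/Nterm, and 5 without its library 2. The NPC2 footprint call was lost without any of 5 libraries, all but Nterm/Nterm library 2, and with DESeq2. In footprints, 3 rose and none fell without wt/wt library 3, and none rose and 2 fell without Nterm/Nterm library 2.

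For APP, the precursor of amyloid beta, and its processing, 1 of 15 genes rose and 5 fell in RNA, and 1 of 14 rose and 3 fell in footprints. BACE2 (-0.57 and -0.53), a protease related to the beta-secretase, and MME (-0.33 and -0.44), neprilysin, which degrades amyloid beta, fell in both assays. APLP1, an APP relative, rose in both (0.16 and 0.28), while APLP2 fell in RNA (-0.24) and ADAM17 in footprints (-0.22). The ADAM17 call was lost without wt/wt library 1 or 2 or Nterm/Nterm library 1 or 3, and with DESeq2. The APLP1 RNA call was lost without wt/wt library 1 or 2 or Nterm/Nterm library 3. Its footprint call was lost without wt/wt library 1 or any Nterm/Nterm library. The BACE2 RNA call was lost without wt/wt library 1 or 2. APP itself had -0.10 in RNA (edgeR adjusted p = 0.0785) and 0.08 in footprints (0.622). The medians were -0.09 and -0.02. The 6 RNA calls were 2 when library 1 or 2 of wt/wt was left out and 4 when library 3 of Nterm/Nterm was, and the 4 footprint calls were 2 when library 1 of either genotype or library 3 of Nterm/Nterm was left out.

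Of the secreted ligands of LRP1, 8 of 9 fell in RNA, 6 of 9 fell in footprints and none rose. MMP9, a gelatinase, went from 72.7 ± 6.17 to 32.5 ± 7.66 CPM in RNA (SD, n = 3), a log2 change of -1.16 (edgeR adjusted p = 0.000281), and changed by -0.97 in footprints (5.48e-06). MMP2, the other gelatinase, changed by -0.88 and -0.74, TIMP3, an inhibitor of these proteases, by -0.64 in RNA, and CCN2, a matricellular protein, by -0.49 in footprints. The list's median was -0.53 in RNA and -0.38 in footprints, against -0.00039 and 0.0083 for all transcripts. Leaving out single libraries left 7 or 8 RNA calls and 5 or 6 footprint calls.

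**Figure D4:**
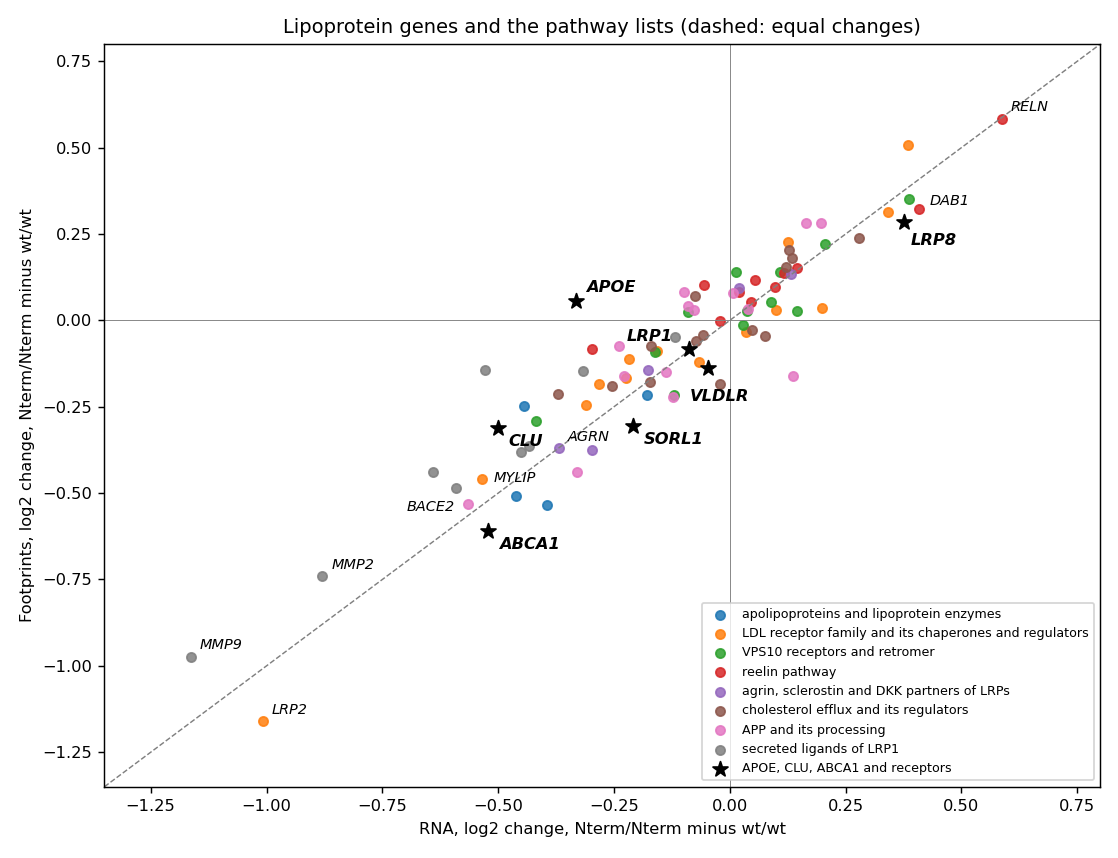
Log2 change in RNA (x axis) and in footprints (y axis), Nterm/Nterm minus wt/wt, with 1 point per gene coloured by list and stars for the 7 genes; the dashed line marks equal changes. APOE lies above the line at -0.33 and 0.06, and MMP9, MMP2 and LRP2 lie at the lower left.

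RNA levels of markers of several cell types differed between the genotypes as well, and since these are bulk samples, fewer cells of a type and less RNA per cell cannot be told apart. Of the 12 neuronal markers, 6 rose and none fell in RNA, and their summed level was 13340 to 14270 CPM in wt/wt and 15380 to 16600 CPM in Nterm/Nterm. NEFL (0.30), NEFM (0.26) and DCX (0.26) rose most. In place of 6 calls there were 4 when Nterm/Nterm library 1 or 3 was left out, 3 when wt/wt library 2 was, and 2 when wt/wt library 1 was. Of the 11 astrocyte markers, 5 had a symbol. GJA1 (-0.59) and SOX9 (-0.47) fell in RNA, the GJA1 call being lost without wt/wt library 1 (adjusted p = 0.0856) or 2 (0.0766), and the sum of the 5 was 406 to 416 CPM against 376 to 395 CPM. SLC1A2 and SLC1A3, glutamate transporters of astrocytes, had 0.12 and -0.09, neither past the threshold. Of the 14 mesenchymal markers, 7 had a symbol, and 6 fell and 1, THY1, which neurons also carry, rose (0.19), a call lost without wt/wt library 1 or 2 or Nterm/Nterm library 1 or 3. COL1A1 (-1.31), ACTA2 (-0.77) and COL5A1 (-0.74) fell most, and the sum was 2651 to 3185 CPM against 1817 to 2274 CPM. The RNA call of TAGLN, another of the 6, was lost without wt/wt library 1 (edgeR adjusted p = 0.106) or 2 (0.125). Of 10 neural progenitor markers, 7 had a symbol and 5 fell, among them NOTCH1 (-0.55), ID3 (-0.50) and VIM (-0.41), with sums of 1227 to 1335 CPM against 973 to 1134 CPM. HES1, another of the 5, lost its call without wt/wt library 1 (edgeR adjusted p = 0.0818) or 2 (0.101) or Nterm/Nterm library 1 (0.0709) or 3 (0.0613). Of 8 pluripotent markers, 4 had a symbol and 2 fell, LIN28A (-0.51) and CDH1 (-0.35), with sums of 594 to 666 CPM against 437 to 518 CPM. Of 8 microglial markers only CSF1R had a symbol, and it fell (-0.55). Of 7 hepatocyte markers only TF had a symbol, with a value of -0.16 that did not pass. The marker values above are of RNA. In footprints the sums of the genotypes overlapped for neural progenitors (1494 to 1807 CPM in wt/wt, 1482 to 1716 CPM in Nterm/Nterm) and for mesenchymal markers (3195 to 3748 against 2449 to 3238 CPM). VIM (-0.06), COL1A2 (-0.20) and TAGLN (0.0023) did not pass in footprints. The markers without a symbol, among them PDGFRA, PDGFRB, POU5F1, NANOG, PAX6 and AIF1, were not analysed here.

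The Nterm/Nterm libraries differed among themselves in several of these values. In Nterm/Nterm libraries 1, 2 and 3, the mesenchymal sum in RNA was at -0.45, -0.39 and -0.71 on the log2 scale, relative to the wt/wt mean. APOE was at -0.34, -0.15 and -0.54, CLU at -0.47, -0.37 and -0.68, and ABCA1 at -0.43, -0.47 and -0.68. The third Nterm/Nterm library was thus the lowest for all 4, and it was the highest for LRP8 (0.48). Among the wt/wt RNA libraries the third was likewise the lowest for all 4, at -0.17, -0.11, -0.10 and -0.08 in the same order. Without RNA library 3 of Nterm/Nterm the changes of APOE (-0.24), CLU (-0.42), ABCA1 (-0.45) and LRP8 (0.32) were smaller and still passed the edgeR threshold. In footprints the mesenchymal sum was at -0.26, -0.11 and -0.51, and CLU was at -0.30, -0.16 and -0.48. The part of these other cell types in the changes of APOE, CLU, ABCA1 and the LRP1 ligands was not tested.

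**Figure D5:**
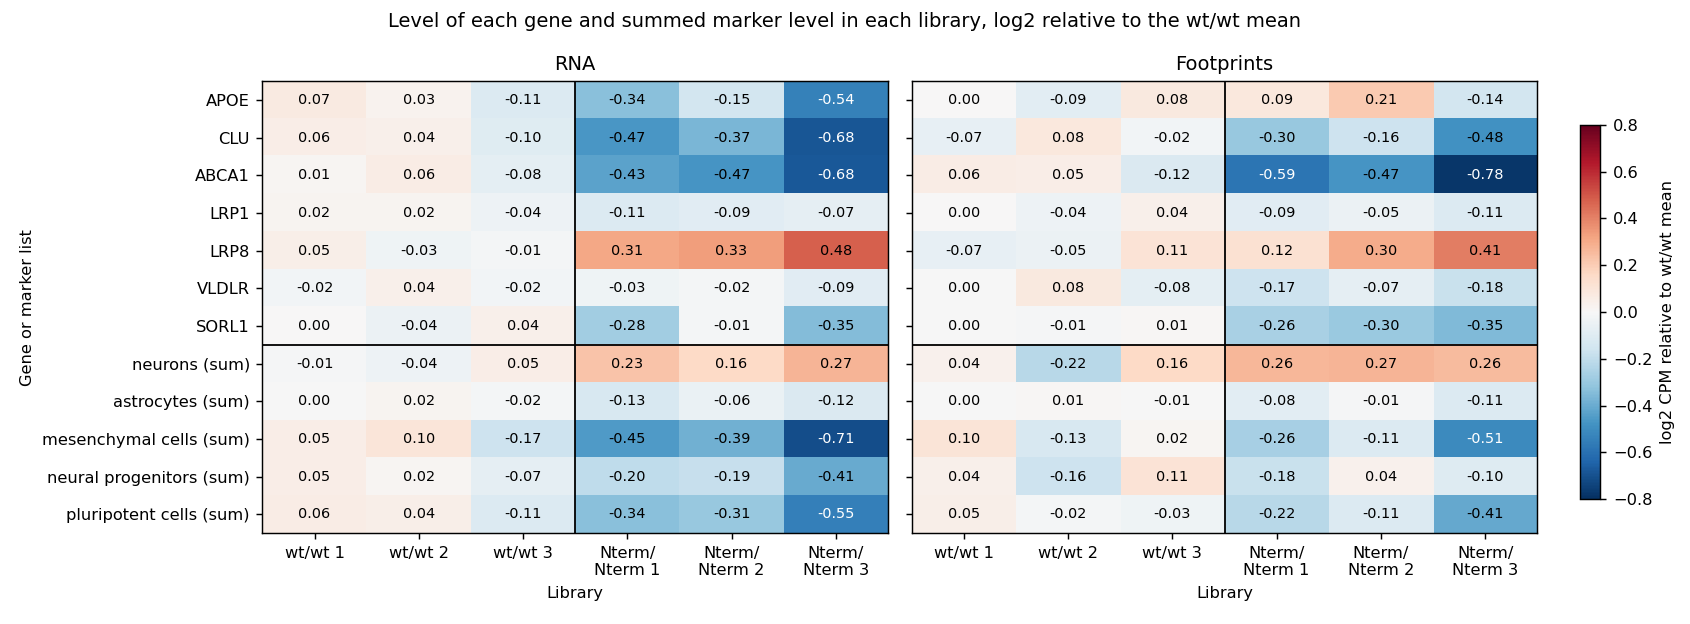
Level of each gene and summed level of each marker list (rows) in each library (columns), as log2 of CPM relative to the wt/wt mean of the same assay, with the value printed in each cell; RNA is on the left and footprints on the right. Nterm/Nterm library 3 holds the lowest RNA value of APOE, CLU, ABCA1 and the mesenchymal sum, at -0.54, -0.68, -0.68 and -0.71.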

How the data were processed

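The authors deposited whole-number counts per transcript for 12 libraries. The submitters' processing notes name build GRCh37 and, without their roles, edgeR, limma, Salmon 1.4.0, Bowtie2 2.3.4.3, cutadapt 2.4 and UMI-tools 1.0.1. The sources used here do not say how reads matching several transcripts were counted, or whether coding sequences or whole transcripts were. In a second deposited table, each genotype has a mean footprint to RNA ratio with its SD, followed by the quotient of both means and an unadjusted p-value, per the file headers.

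RNA and footprint counts were fitted separately with edgeR 4.0.16 in R 4.3.3 (TMM, filterByExpr, quasi-likelihood F test, two-sided, Benjamini-Hochberg, threshold 0.05). Translational efficiency was the interaction of assay and genotype, with TMM factors within each assay. After such scaling a change is one relative to most transcripts. Log2 changes give Nterm/Nterm relative to wt/wt, and SE is the size of the change over the square root of F. In simulated data, 100 transcripts were changed by 0.5 on the log2 scale and 100 others by 1. Of those changed by 0.5, 74 were recovered in RNA, 78 in footprints and 62 in translational efficiency. With only 3 transcripts called in translational efficiency, the adjusted threshold was stricter in the real data. The 62 therefore does not carry over to that fit. Alternatives were RLE and upper-quartile scaling, no filter, DESeq2 1.42.0, limma-voom 3.58.1, a replicate block, the genotype tag and leaving out each library.

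Same-numbered RNA libraries of the 2 genotypes deviated together (correlations 0.134, 0.128 and 0.247 over 14659 transcripts, against -0.178 to 0.0601 for different numbers). For footprint libraries the values were 0.0374, 0.127 and 0.264, against -0.186 to 0.0787, so the first did not stand out. The labels do not say that the numbers pair libraries, so the replicate block rests on these correlations alone. Groups followed titles and descriptions, which the count columns match. The design text given for the series is about a different experiment and was not used.

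The genes and lists were chosen with earlier results of these data known. From each list, up to 3 genes per direction with the largest called change were named, and others were named after their values were seen. One entry of these lists is not reported here.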

Additional observations from a re-analysis of the deposited data

How the results depend on the processing

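Of 976 recomputed changes and counts, 833 kept direction and side of the threshold (counts, within 1.5 times), 85 no longer passed, 6 newly passed, 37 changed sign and 15 moved. Of 112 recomputed ratios, 10 moved by more than 1 SD. With the replicate block, the RNA fit called 4504 transcripts against 2624, adding LRP1 and SORL1 and changing no other call among the 7 genes, and the translational efficiency fit called 6 against 3. Same-numbered RNA and footprint libraries correlated by 0.218 to 0.502 in Nterm/Nterm and by 0.0348 to 0.288 in wt/wt, not all above 0.1. A block of these 6 pairs, added after seeing the data, gave 18 calls, 1 of them among the 7 genes, APOE (0.39, adjusted p = 0.0469). DESeq2 gave 37 translational efficiency calls among 672 transcripts with an adjusted p. Leaving out single libraries gave 841 to 2851 RNA calls and 954 to 2045 footprint calls, with 2 to 4 of the 7 genes called in footprints. The lowest RNA counts were without wt/wt libraries 1 (841) and 2 (964) and Nterm/Nterm library 3 (1729), and the lowest footprint counts without wt/wt libraries 1 (954) and 2 (978) and Nterm/Nterm library 3 (965). Ratios moved with single libraries for APOE in Nterm/Nterm (1.45 to 1.66), CLU in Nterm/Nterm (2.45 to 2.74), and ABCA1 in wt/wt (1.91 to 2.04) and Nterm/Nterm (1.76 to 1.96). Changes whose sign turned without a single library were APOE footprints (-0.02 to 0.15) and the translational efficiency of LRP1 (-0.02 to 0.03) and SORL1 (-0.17 to 0.0059). The causes were not tested.

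If the genotype tag replaces the title, footprint changes turn sign by construction. They became -0.06 for APOE, 0.31 for CLU, 0.08 for LRP1, -0.28 for LRP8, 0.14 for VLDLR, 0.61 for ABCA1, 0.31 for SORL1 and 1.6 for LLPH. The list genes became 0.54 for APOL2, 0.51 for LIPG, -0.31 for LDLRAD3, 1.16 for LRP2, 0.46 for MYLIP, -0.35 for SORCS3, -0.22 for SORCS2, -0.58 for RELN, -0.32 for DAB1, 0.37 for AGRN, 0.21 for NPC2, -0.28 for APLP1, 0.53 for BACE2, 0.44 for MME, 0.22 for ADAM17, 0.97 for MMP9, 0.74 for MMP2 and 0.49 for CCN2. Translational efficiency then had 4250 calls, 4 of them among the 7 genes, with changed signs for VLDLR (0.18), ABCA1 (1.13) and SORL1 (0.51). The lowest count among the 7 genes, 322, carries a counting error of 5.57%.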

Other observations

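Over the 12 libraries, after centring log2 CPM within each assay, the transcripts most like APOE of 10745 compared were CST3 (Pearson r = 0.98), CLDN6 (0.969) and CLDN4 (0.969). CST3 encodes the secreted protease inhibitor cystatin C, and CLDN6 and CLDN4 encode tight junction proteins. Like APOE, their RNA was lower in Nterm/Nterm (log2 -0.19, -0.29 and -0.34, edgeR adjusted p = 0.0347, 0.0195 and 0.00495), and their footprint changes were 0.02, 0.03 and 0.04, none past the threshold. The transcripts most like CLU were GRN (0.993), CAPG (0.992) and SULF2 (0.991), which encode progranulin, an actin-capping protein and a heparan sulphatase. These fell in RNA (-0.42, -0.49 and -0.33) and in footprints (-0.24, -0.34 and -0.25, edgeR adjusted p = 0.0493, 0.00827 and 0.0293). The r values are descriptions of likeness, since libraries share genotype and the transcripts were picked as the highest. Changes like those of APOE and CLU follow from that choice, so these changes and their adjusted p are no separate result.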
